A study of Rattus norvegicus with 30 samples.

Results

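Ribosome biogenesis factors are the proteins that transcribe ribosomal RNA, modify and cut it, and build the ribosomal subunits around it. The set described here is a list of 37 rat gene symbols, chosen by name with earlier results of these data known. Of these symbols, 36 had a row among the 17353 symbols of the FPKM table (FPKM counts sequenced fragments relative to transcript length and library size). All 36 passed the filter of a mean of at least 1 FPKM over all libraries, as did 8940 genes in total. Tsr1, a factor of late small subunit assembly, had no row under that symbol and was not analysed here.

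The libraries were made from REF cells, a line of fibroblasts from rat embryos that the labels give as not transformed. Control cells grew with serum, and the others were deprived of it for 2, 3, 4, 6, 8, 10, 12, 14 or 16 days. Each of the 10 groups had 3 libraries labelled as biological replicates, 30 in all, and p-values measure the spread between those libraries. The series title places the work on the depth of quiescence, the resting state that fibroblasts enter without serum.

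Ribosome production starts in the nucleolus, where RNA polymerase I makes one long precursor. Small nucleolar ribonucleoprotein particles (snoRNPs) guide its chemical modification. Large assemblies of processing factors then fold and cut it into the RNAs of the small and the large subunit. In fibroblasts this work is a major cost of growth, and the transcription factor Myc is a known activator of many of the genes.

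Libraries of a group correlated at 0.981 to 0.991, and FPKM sums lay between 582501 and 785072. Read depth is unknown, because the table holds no counts. In every group the library numbered 1 stood apart from the other 2 along the leading axis of within-group deviations, so the counts of factors called are also given from replicates 2 and 3 only. Fewer cells of a type and less RNA per cell cannot be told apart in these bulk samples. Of 8 fibroblast markers, 5 had a mean of at least 1 FPKM, Thy1 and Pdgfra lay below that, and Col1a2 was listed at 0 throughout. All 6 macrophage and all 5 endothelial markers had means below 1 FPKM over all libraries, most of which were starved. The macrophage markers summed to 6.9 to 7.4 FPKM in control, 1.56 to 1.93 at day 2 and 0.715 to 1.04 at day 16. The endothelial markers summed to 0.35 to 0.616 FPKM in control and 0 to 0.399 at day 2.

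Promoter windows were matched by symbol in RefSeq (GRCr8), from 250 bases before to 50 after the annotated start. A window was found for 33 of the 36 factors, and not for Rrs1, Bop1 and Wdr43. The E-box CACGTG, a motif that Myc with its partner Max can bind, was in 12 of 33 windows (36.4%), against 9.84% of 6972 windows of tested genes and 6.42% of all 33469 windows. It was in 5 of 56 windows of cytosolic ribosomal protein genes (8.93%). The ETS-type motif CCGGAAG was in 13 of 33 windows (39.4%) against 20.4% of those of tested genes and 30.4% of those of ribosomal protein genes. CTCGCGAG was in 1 window, that of Npm1 (3.03%), against 2.02% of tested genes and 14.3% of ribosomal protein genes. Both strands were searched, CACGTG and CTCGCGAG read the same on both, and no E-box of a factor overlapped another of these motifs. The median GC content was 58% in the windows of the factors and 61.7% in those of tested genes. A match is a description of letters and not a site of binding.

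The 6 stretches below show where the E-boxes lie in the highest-expressed factors that have one, passing over windows whose E-box ended more than 30 bases after the start. Each runs 5′ to 3′ on the gene's own strand with the E-box in capitals. Dkc1 is at chrX:157751417-157751522 (plus strand) with its E-box at -184 from the start. Fbl is at chr1:92597378-92597436 (plus) with the E-box at 22. Mybbp1a is at chr10:57555252-57555487 (plus) and has 2, at -156 and -1. Pes1 is at chr14:83074246-83074351 (plus) with the E-box at -50. Gnl3 is at chr16:6219753-6219857 (minus) with the E-box at -25, and Wdr75 is at chr9:55395022-55395127 (plus) with the E-box at -160.
Dkc1: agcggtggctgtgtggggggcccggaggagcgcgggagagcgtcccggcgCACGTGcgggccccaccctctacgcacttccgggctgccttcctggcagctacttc
Fbl: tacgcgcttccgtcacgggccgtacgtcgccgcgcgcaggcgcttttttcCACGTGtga
Mybbp1a: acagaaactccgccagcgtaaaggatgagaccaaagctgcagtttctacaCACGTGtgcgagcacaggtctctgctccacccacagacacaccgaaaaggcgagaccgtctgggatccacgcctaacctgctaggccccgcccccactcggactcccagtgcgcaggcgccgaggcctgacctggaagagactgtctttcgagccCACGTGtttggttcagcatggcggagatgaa
Pes1: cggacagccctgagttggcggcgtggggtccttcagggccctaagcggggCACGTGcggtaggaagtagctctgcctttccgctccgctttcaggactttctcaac
Gnl3: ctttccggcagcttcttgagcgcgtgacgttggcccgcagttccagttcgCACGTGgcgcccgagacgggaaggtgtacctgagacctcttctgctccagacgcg
Wdr75: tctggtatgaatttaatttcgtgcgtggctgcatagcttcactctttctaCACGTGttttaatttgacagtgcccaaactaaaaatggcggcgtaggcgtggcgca

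At day 2 the log2 changes of these 6 genes were -1.55 for Fbl, -0.97 for Dkc1, -0.66 for Gnl3 and -0.44 for Mybbp1a, which passed the test of day 2 against control, and -0.16 for both Pes1 and Wdr75, which did not. Over the 12 factors with an E-box the median log2 change at day 2 was -0.55 and 9 fell, and over the 21 without one it was -0.70 and 18 fell. Of all tested genes, 30.7% fell. Whether the motif has a part in these changes was not tested.

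The first comparison asks what 2 days without serum did to the set. At day 2, 30 of the 36 factors had fallen and none had risen, while 30.7% of all tested genes fell and 30% rose. The median change of the factors was -0.68 on the log2(FPKM + 1) scale, against 0.00 over all tested genes. Their summed level went from 2350, 2299 and 2455 FPKM in the control libraries to 1416, 1403 and 1426 FPKM at day 2. The largest falls were those of the box C/D particle core and Emg1, with log2 changes of -1.55 for Fbl, -1.54 for Emg1, -1.49 for Nop58 and -1.25 for Nop56. Day 2 differs from control both in serum and in proliferation, and their parts cannot be told apart: Mki67 went from 52.3 ± 10.7 to 1.50 ± 0.463 FPKM (SD, n = 3), and all 10 cell division genes listed fell.

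At day 16, the longest starvation, 28 factors were lower than in control and 2 were higher, with 35.0% of tested genes lower and 32.4% higher. The median was -0.56 against -0.02 over all tested genes, and the same control libraries serve both comparisons. In replicates 2 and 3 only, 29 factors were lower at day 2, and 27 were lower and 2 higher at day 16. At day 16, 24 were lower and 2 higher under upper quartile scaling, and 25 and 2 under quantile normalization. In 24 of the 36, each of the 27 starved libraries lay below the lowest control library, as in 21.5% of all tested genes. The values at all time points are in the plot of every library by role.

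**Figure D1:**
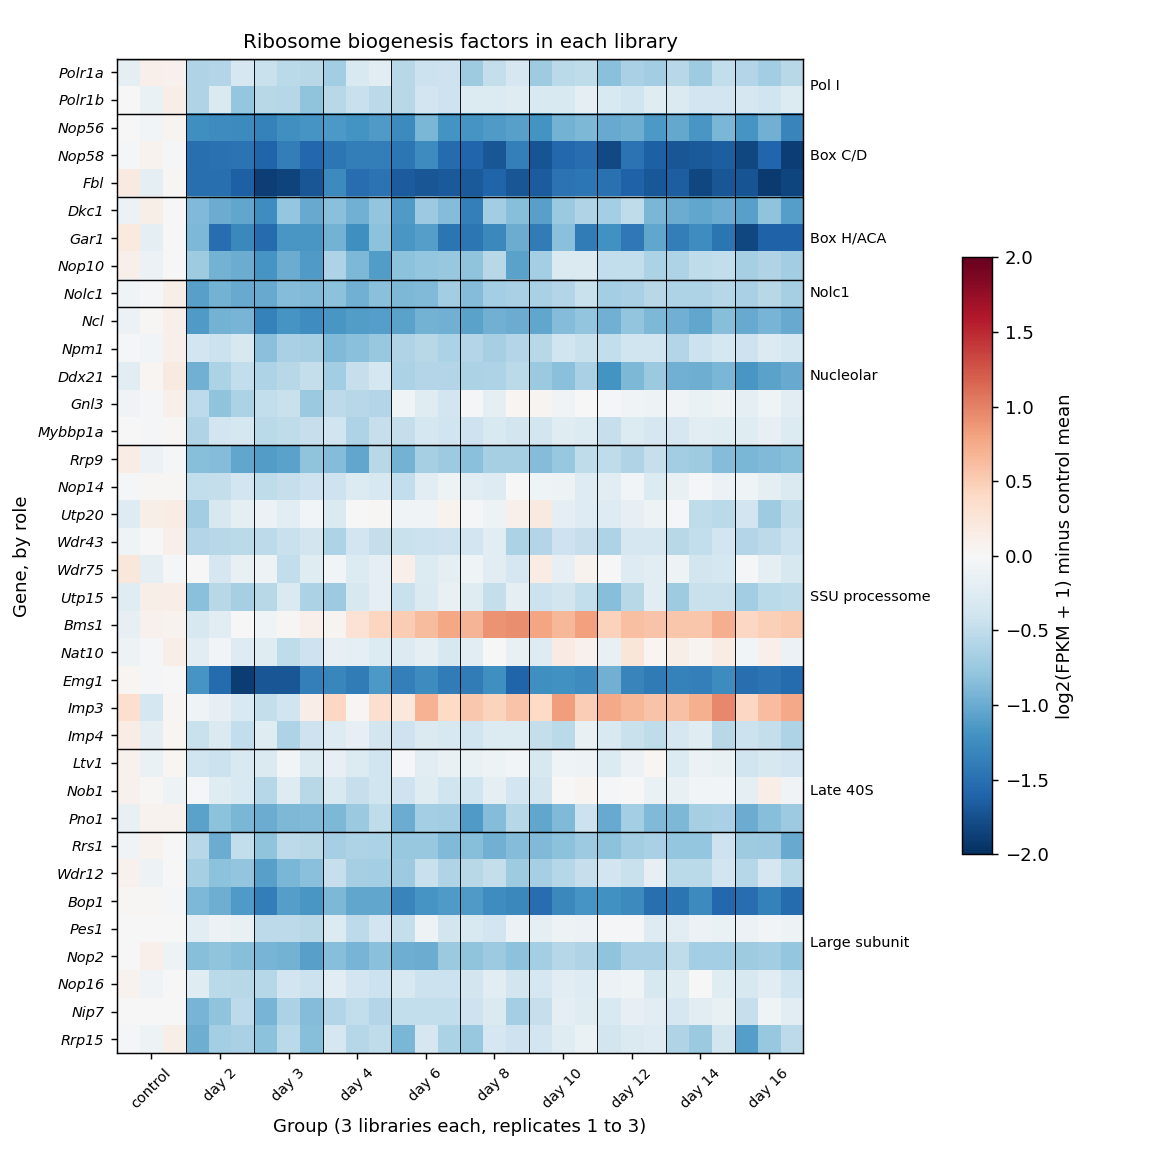
Rows are the 36 factors ordered by role, columns the 30 libraries by days without serum, and colour gives log2(FPKM + 1) minus the gene's control mean. Most rows are blue in all starved groups, deepest for Fbl, Nop58, Gar1 and Emg1, while Bms1 and Imp3 turn red from about day 4 to 6 onward.

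RNA polymerase I was represented by Polr1a, its largest subunit, and Polr1b, the other large catalytic subunit. Polr1b measured 9.55, 8.55 and 10.4 FPKM in control, 5.88, 7.61 and 5.12 at day 2, 7.65, 7.68 and 7.89 at day 8, and 7.30, 6.92 and 7.66 at day 16. Every starved value lay below the control values, and the day 8 libraries were tighter than those of day 2. Its log2 change was -0.55 ± 0.10 (SE; adjusted p = 5.21e-05) at day 2 and -0.34 ± 0.10 (adjusted p = 0.00581) at day 16. With replicates 2 and 3 only, or upper quartile scaling, the day 16 call was lost (adjusted p = 0.0527 to 0.063). Polr1a went from 7.14 ± 0.886 to 4.73 ± 0.608 FPKM at day 2, and its changes were -0.51 ± 0.12 at day 2 and -0.62 ± 0.12 at day 16, both past the threshold.

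The box C/D particle, which methylates ribose in ribosomal RNA, had the lowest median change of the role classes at day 2, -1.49. Fibrillarin (Fbl), its methyltransferase, measured 150, 116 and 135 FPKM in control, 46.1, 46.0 and 42.0 at day 2, 40.8, 43.1 and 40.1 at day 8, and 39.4, 34.7 and 36.6 at day 16. Every starved library shown lay far below the lowest control library. Its log2 change was -1.55 ± 0.09 (adjusted p = 4.9e-14) at day 2 and -1.82 ± 0.09 (adjusted p = 9.96e-16) at day 16, the lowest of any factor in both. Nop56, a core scaffold of the particle, measured 101, 97.8 and 106 FPKM in control, 42.6, 41.9 and 41.2 at day 2, 44.1, 45.9 and 47.5 at day 8, and 44.2, 51.7 and 39.9 at day 16. Nop56 was again far below control at each of these days, and its day 2 and day 16 libraries overlapped. Nop58, the partner of Nop56, went from 85.6 ± 3.99 to 29.8 ± 0.423 FPKM at day 2 and 24.5 ± 2.90 at day 16.

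The box H/ACA particle converts uridine to pseudouridine, and its 3 members also fell. Gar1, a core protein, had the largest change, from 23.3 ± 3.27 to 9.42 ± 2.30 FPKM at day 2 and 6.54 ± 0.631 at day 16 (log2 -1.24 ± 0.17 and -1.68 ± 0.17). Dkc1, the pseudouridine synthase, went from 103 ± 8.22 to 52.3 ± 2.77 and 51.5 ± 6.25 FPKM. Nop10, the small core protein and the most abundant of the 3, measured 178, 153 and 167 FPKM in control, 101, 85.8 and 82.5 at day 2, 94.3, 113 and 78.0 at day 8, and 104, 109 and 102 at day 16. No starved library of Nop10 reached the control range, and the day 2 and day 8 libraries overlapped. Nolc1, a chaperone that escorts snoRNPs, measured 36.0, 37.7 and 41.5 FPKM in control, 17.5, 19.5 and 18.6 at day 2, 20.6, 23.6 and 24.1 at day 8, and 24.0, 25.7 and 23.9 at day 16. Its lowest starved values were those of day 2, with a log2 change of -1.01 ± 0.08 there (adjusted p = 2.68e-11) and -0.62 ± 0.08 at day 16 (adjusted p = 1.17e-07).

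All 5 abundant or multifunctional nucleolar proteins fell at day 2, against 30.7% of all tested genes. At day 16, 4 of the 5 were lower, against 35.0% of all tested genes. Nucleophosmin (Npm1), a histone chaperone of the outer nucleolus, had the highest level of the set and the smallest fall of these 5. It measured 515, 505 and 564 FPKM in control, 406, 393 and 423 at day 2, 352, 332 and 351 at day 8, and 394, 434 and 411 at day 16. Npm1 was below control throughout and lowest at day 4, at 297 ± 12.5 FPKM. Its log2 change was -0.37 ± 0.07 at day 2 (adjusted p = 6.27e-05) and -0.35 ± 0.07 at day 16 (adjusted p = 9.39e-05). Npm1 has many processed pseudogenes, so reads could be split between copies in the counting, and its level is uncertain. Nucleolin (Ncl), which binds precursor RNA, changed by -1.0 ± 0.08 at day 2 and -0.98 ± 0.08 at day 16.

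Ddx21, a helicase that links polymerase I transcription to processing, measured 31.3, 38.0 and 42.0 FPKM in control, 18.4, 23.3 and 25.8 at day 2, 23.3, 23.6 and 24.9 at day 8, and 15.9, 17.1 and 17.8 at day 16. Its day 16 libraries were the lowest of these 4 groups and did not overlap any other, with a log2 change of -0.70 ± 0.12 at day 2 and -1.08 ± 0.12 at day 16. Nucleostemin (Gnl3), a GTP-binding protein of proliferating cells, measured 31.1, 31.6 and 35.0 FPKM in control, 22.2, 18.2 and 20.6 at day 2, 31.8, 28.7 and 33.4 at day 8, and 28.6, 30.6 and 27.6 at day 16. At day 8 its libraries overlapped those of control, while those of day 16 all lay below the control values. The day 16 change of -0.16 ± 0.09 did not pass (adjusted p = 0.0945). Mybbp1a, a nucleolar protein named for binding Myb, changed by -0.44 ± 0.07 at day 2 and -0.23 ± 0.07 at day 16, and the latter was lost under upper quartile scaling and quantile normalization (adjusted p = 0.107).

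**Figure D2:**
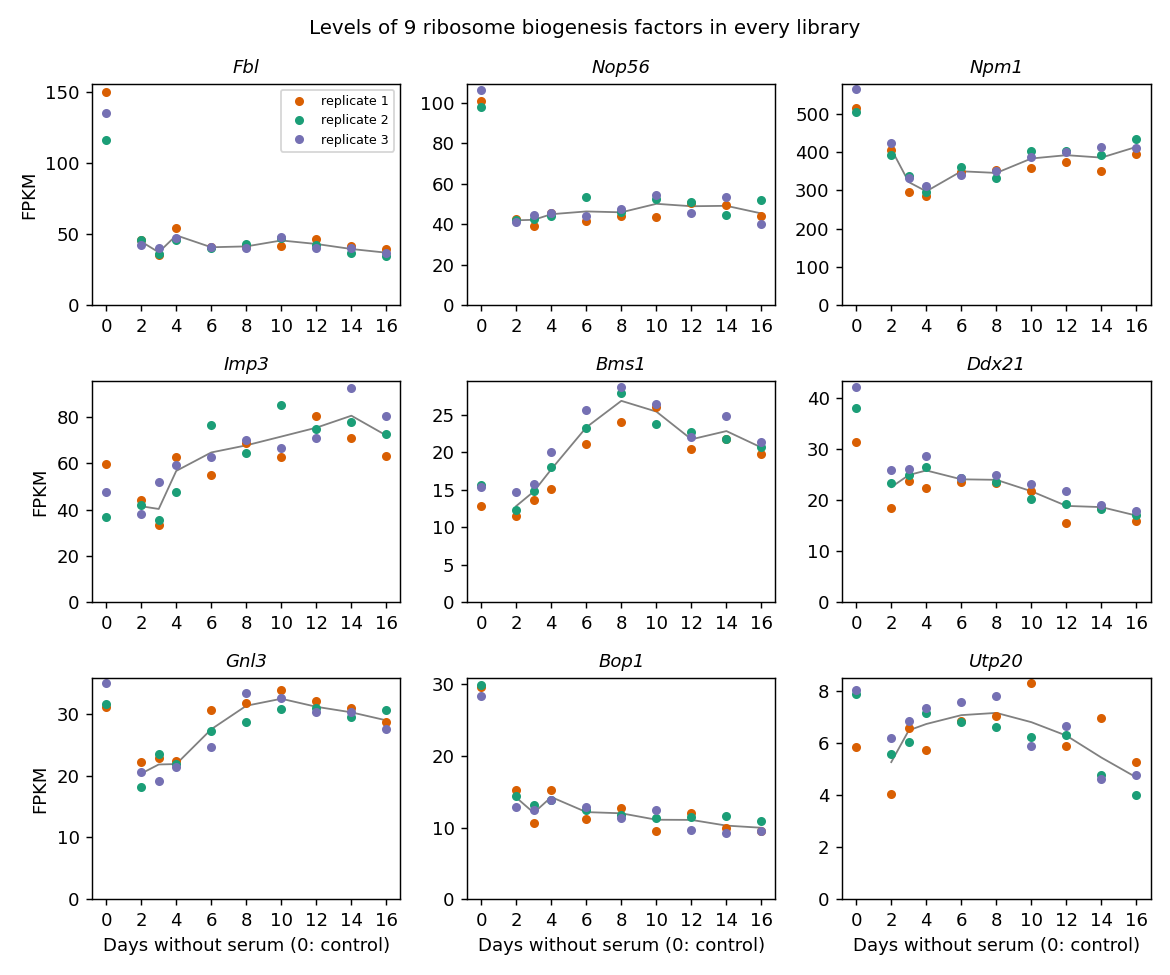
Each point is 1 library, with FPKM from 0 on the vertical axis, days without serum on the horizontal axis (0 is control) and colour by replicate number, and grey lines join the means of the starved groups. Fbl, Nop56 and Bop1 stay far below control, and Bms1 and Imp3 come to exceed it. Gnl3 overlaps the control range at day 8 and lies just below it at day 16.

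The small subunit processome, which cuts out the small subunit RNA, held the widest spread of responses. At day 2, 7 of its 11 factors fell and 4 did not pass, while 30.7% of all tested genes fell. Emg1, a methyltransferase of small subunit RNA, went from 38.6 ± 0.961 to 12.9 ± 3.39 FPKM at day 2 and 12.9 ± 0.377 at day 16, with log2 changes of -1.54 ± 0.13 and -1.51 ± 0.13. Rrp9, a protein of the snoRNP that guides the first cuts, went from 29.2 ± 2.76 to 15.0 ± 1.19 FPKM at day 2. Nop14, a structural factor, and Utp20, a very large scaffold, changed less. The changes of Nop14 were -0.45 ± 0.09 at day 2 and -0.19 ± 0.09 at day 16, of which the latter passed without day 16 replicate 1 (-0.24, adjusted p = 0.0399) and in replicates 2 and 3 only (-0.27, 0.037). Utp15 and Wdr43, of the early subcomplex that joins transcription to processing, changed by -0.68 ± 0.15 and -0.56 ± 0.10 at day 2, and Wdr75 of the same subcomplex by -0.16 ± 0.13 (adjusted p = 0.301).

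Imp3 and Imp4 work together in pairing the guide RNA with the precursor, and their levels parted during starvation. Imp3 measured 59.5, 36.8 and 47.7 FPKM in control, 44.3, 41.9 and 38.1 at day 2, 68.7, 64.3 and 70.2 at day 8, and 63.0, 72.5 and 80.4 at day 16. Its control libraries were widely spread and held all day 2 values between them, while each day 8 and day 16 library lay above them all. Its log2 change was -0.18 ± 0.16 at day 2 (adjusted p = 0.347) and 0.59 ± 0.16 at day 16 (adjusted p = 0.00262). Imp4 changed by -0.41 ± 0.11 at day 2 (adjusted p = 0.00217, and 0.0543 in replicates 2 and 3 only) and -0.51 ± 0.11 at day 16.

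Bms1, a GTPase of the processome, measured 12.9, 15.6 and 15.4 FPKM in control, 11.5, 12.3 and 14.7 at day 2, 24.0, 27.9 and 28.7 at day 8, and 19.8, 20.7 and 21.4 at day 16. The day 2 libraries overlapped control, and the day 8 and day 16 libraries lay above both. Its change was -0.18 ± 0.10 at day 2, which passed without day 2 replicate 3 (-0.27, adjusted p = 0.0397), and 0.47 ± 0.10 at day 16. Nat10, the acetyltransferase of small subunit RNA, changed by -0.17 ± 0.11 at day 2 and -0.03 ± 0.11 at day 16, and neither passed. Utp20 measured 5.83, 7.89 and 8.04 FPKM in control, 4.04, 5.57 and 6.18 at day 2, 7.04, 6.60 and 7.82 at day 8, and 5.25, 4.00 and 4.77 at day 16. Replicate 1 was the lowest library of Utp20 in control and at day 2, and those 2 groups overlapped. Its day 2 call (-0.40 ± 0.15, adjusted p = 0.0229) was lost without control replicate 2, control replicate 3 or day 2 replicate 1, and under 3 other settings (adjusted p = 0.0556 to 0.169).

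Late small subunit assembly was covered by 3 factors. Pno1, a partner of the final cutting enzyme, went from 31.6 ± 2.71 to 16.1 ± 1.52 FPKM at day 2 and 17.0 ± 1.61 at day 16. Ltv1, needed for late maturation, changed by -0.38 ± 0.09 at day 2 and -0.37 ± 0.09 at day 16. Nob1, the endonuclease of the last cut, measured 49.5, 47.1 and 43.3 FPKM in control, 45.9, 39.1 and 37.7 at day 2, 35.0, 40.7 and 35.5 at day 8, and 41.2, 51.1 and 44.5 at day 16. Its control libraries overlapped those of day 2 and of day 16, and its changes of -0.19 ± 0.11 and -0.03 ± 0.11 did not pass. Without day 2 replicate 1 the day 2 change of Nob1 passed (-0.27, adjusted p = 0.046).

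Of the 8 large subunit factors, 7 were lower at day 2 and 7 at day 16, with Pes1 the exception in both. The shares of all tested genes that were lower were 30.7% at day 2 and 35.0% at day 16. Pes1, Bop1 and Wdr12 form one complex of large subunit processing, and their levels differed in response. Pes1 measured 32.9, 33.6 and 33.2 FPKM in control, 28.7, 30.6 and 29.8 at day 2, 26.7, 25.2 and 30.4 at day 8, and 30.4, 32.0 and 30.8 at day 16. All 27 starved libraries lay below its 3 tight control libraries, yet the change of -0.16 ± 0.09 at day 2 did not pass (adjusted p = 0.116). Bop1 measured 29.7, 29.9 and 28.4 FPKM in control, 15.3, 14.4 and 12.9 at day 2, 12.8, 11.8 and 11.4 at day 8, and 9.55, 10.9 and 9.49 at day 16. Each of these groups of Bop1 lay wholly below the one before it, with log2 changes from control of -1.0 ± 0.10 at day 2 and -1.47 ± 0.10 at day 16. Its steps from day 2 to day 8 (-0.22, adjusted p = 0.0988) and from day 8 to day 16 (-0.25, adjusted p = 0.0754) did not pass. Wdr12 went from 34.3 ± 2.22 to 20.0 ± 1.26 FPKM at day 2 and 24.3 ± 2.28 at day 16.

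Nop16 had the highest mean level of the large subunit factors. It measured 55.3, 49.8 and 52.1 FPKM in control, 44.0, 35.6 and 35.2 at day 2, 40.2, 45.1 and 40.3 at day 8, and 41.8, 44.9 and 39.6 at day 16. Its starved libraries at these days lay below control and overlapped each other. Nop2, a methyltransferase of large subunit RNA, went from 34.6 ± 2.56 to 18.9 ± 0.310 FPKM at day 2. Rrs1, Rrp15 and Nip7, assembly factors of the large subunit, changed by -0.68 ± 0.12, -0.77 ± 0.15 and -0.75 ± 0.11 at day 2 and by -0.82 ± 0.12, -0.80 ± 0.15 and -0.26 ± 0.11 at day 16. The day 16 call of Nip7 (adjusted p = 0.0374) was lost when any 1 control library, day 16 replicate 1 or day 16 replicate 3 was left out, and under 4 other settings (0.0505 to 0.259). That of Nop16 (0.00382) was lost under upper quartile scaling and quantile normalization (0.0718 and 0.0724).

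The next question is how the set changed with the length of starvation. Among the 27 starved libraries, 18 factors rose and 4 fell with day, against 26.6% of tested genes rising and 28.9% falling. The median fitted change over the 14 days was 0.17, against -0.02 over all tested genes. The rises were largest in Imp3 (0.87 ± 0.14), Bms1 (0.60 ± 0.15), Nip7 (0.57 ± 0.08) and Gnl3 (0.56 ± 0.10) on the log2 scale. Nop58 (-0.30 ± 0.07), Gar1 (-0.34 ± 0.13), Bop1 (-0.43 ± 0.08) and Ddx21 (-0.50 ± 0.09) fell with day, each with its highest starved mean at day 4, so that members of one particle or complex were called in opposite directions: Nop58 against Nop56 (0.17 ± 0.07), Gar1 against Nop10 (0.46 ± 0.11), and Bop1 against Wdr12 (0.38 ± 0.09) and Pes1 (0.29 ± 0.08). The other factors that rose were Ncl, Npm1, Nolc1, Polr1b, Nop2, Nop16, Nop14, Mybbp1a, Nob1 and Nat10.

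The split of the slopes depended on scaling. With each library rescaled to the same FPKM sum, which moved the median of all genes from -0.02 to -0.14, 9 factors rose and 7 fell. The rescaling ended the calls of Pes1 (adjusted p = 0.102), Mybbp1a (0.101), Nop14 (0.0807), Nop16 (0.291) and Nop2 (0.114). It also ended those of Nop56, Ncl, Npm1 and Polr1b. In replicates 2 and 3 only, 15 rose and 5 fell. The calls of Nop56 (adjusted p = 0.047) and Gar1 (0.0288) were lost in 27 and 10 of 45 alternative settings (up to 0.70 and 0.476), including those without day 2 replicate 1 or day 16 replicate 2. Without day 3 the calls of Ncl and Npm1 were lost as well, without day 4 or day 16 those of Npm1 and Gar1, and in replicates 2 and 3 only those of Polr1b and Ncl (adjusted p = 0.0514 to 0.401 over the settings that ended the calls of Ncl, Npm1 and Polr1b).

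**Figure D3:**
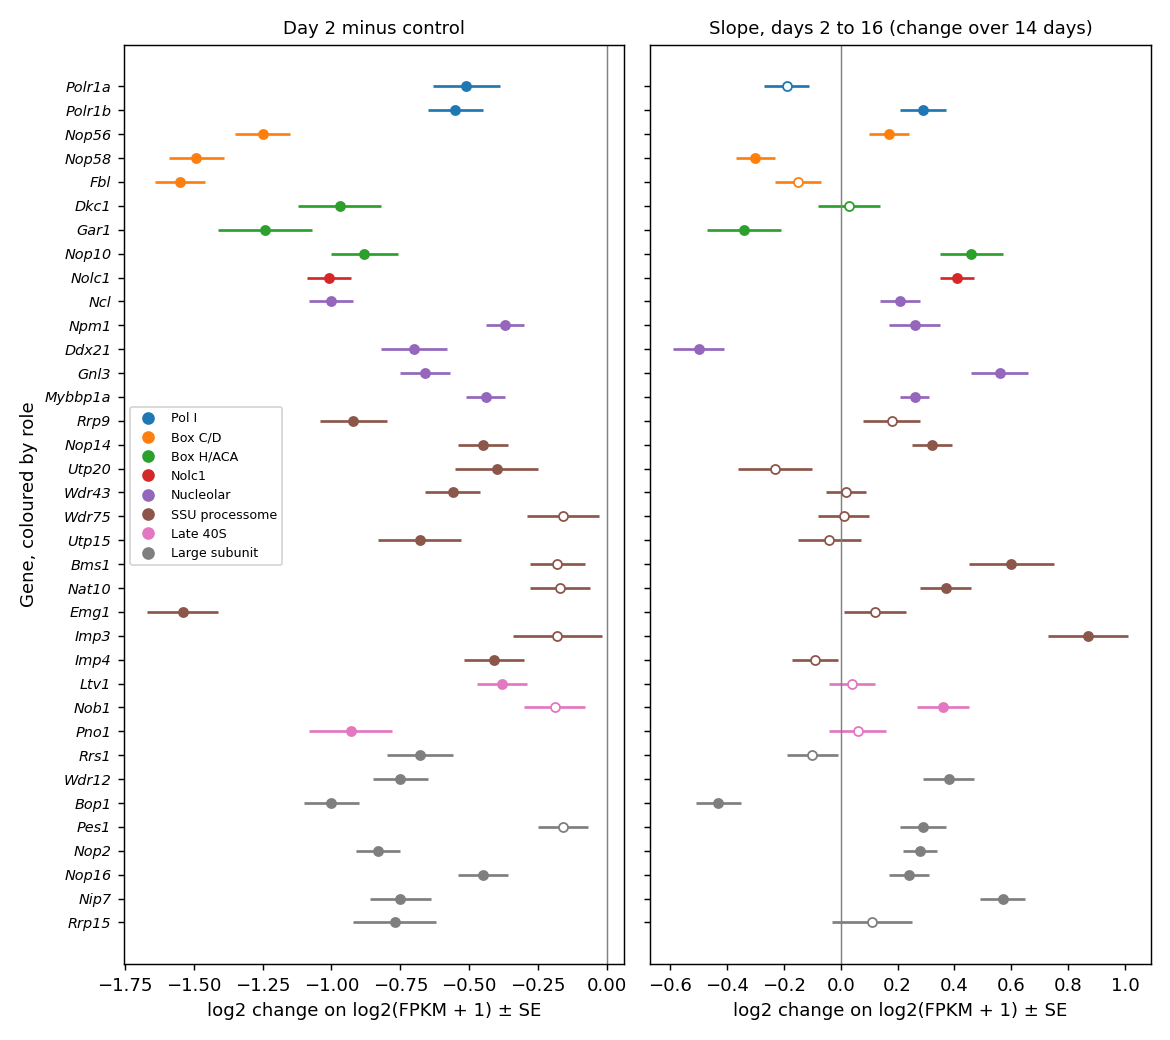
Points are fitted log2 changes with SE bars for each factor, coloured by role, for day 2 minus control (left) and for the slope over days 2 to 16 (right), and open points did not pass the adjusted p threshold of 0.05. All 36 points on the left lie below 0, from -1.55 for Fbl to -0.16 for Pes1, and those on the right lie on both sides, from -0.50 for Ddx21 to 0.87 for Imp3.

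From day 2 to day 8, 9 factors rose and 1 fell, against 17.4% of tested genes rising and 18.4% falling. The rises were those of Bms1 (1.01 ± 0.10, adjusted p = 1.89e-08), Imp3 (0.70 ± 0.16), Gnl3 (0.60 ± 0.09), Utp20 (0.39 ± 0.15), Polr1b (0.29 ± 0.10), Nop14 (0.29 ± 0.09), Ltv1 (0.29 ± 0.09), Nip7 (0.29 ± 0.11) and Nolc1 (0.28 ± 0.08). Npm1 fell by 0.24 on the log2 scale (adjusted p = 0.00934). The number of calls was 6 without day 2 replicate 1, 6 without day 8 replicate 3 and 5 with only the 2 groups in the fit. With libraries rescaled to one sum, which moved the median of all genes from 0.01 to 0.11, 14 rose and none fell. Npm1 no longer passed there (adjusted p = 0.106). In replicates 2 and 3 only, 7 rose and 1 fell. Utp20, Polr1b, Nip7, Nop14 and Ltv1 each lost the call without at least 1 library, with adjusted p up to 0.255, 0.198, 0.273, 0.116 and 0.0536 over all settings. Day 2 replicate 1 ended the calls of the first 4 of these, and day 2 replicate 2 or day 8 replicate 3 that of Ltv1.

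From day 8 to day 16, 4 factors fell and 2 rose, against 14.4% of tested genes falling and 15.8% rising. Both of these are larger shares than 4 and 2 of 36. Utp20 fell by 0.53, Ddx21 by 0.47, Bms1 by 0.36 and Ltv1 by 0.27, and Npm1 and Nob1 rose by 0.26 ± 0.07 and 0.29 ± 0.11 on the log2 scale. These factors share the day 8 libraries with the comparison before, in which Utp20, Bms1 and Ltv1 were higher and Npm1 lower at day 8. With libraries rescaled to one sum, which moved the median of all genes to -0.16, 12 factors fell and none rose, with Npm1 at an adjusted p of 0.312. In replicates 2 and 3 only, 4 fell and 2 rose. Utp20 lost its call without day 16 replicate 2 (adjusted p = 0.0579), Bms1 without day 8 replicate 3 (0.0563), Ltv1 without day 8 replicate 2 or 3 or day 16 replicate 1 or 3 (0.0532 to 0.0793), and Nob1 without day 8 replicate 1 or 3 or day 16 replicate 2 or 3 (0.0537 to 0.383 over all settings that ended it).

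As a list, the factors were below control at every time sampled. Their mean log2(FPKM + 1) relative to control was -0.70 ± 0.0026 at day 2 and -0.75 ± 0.054 at day 3 (SD, n = 3), then -0.61, -0.59, -0.56, -0.50, -0.51, -0.55 and -0.63 at days 4, 6, 8, 10, 12, 14 and 16. The highest starved mean was that of day 10, at which the 3 libraries gave -0.59, -0.47 and -0.43. The lowest starved mean of a factor fell at day 3 in 15 of the 36, at day 2 in 8 and at day 16 in 8. Replicate 1 gave the lowest, or equal lowest, list mean in 8 of the 9 starved groups.

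Cytosolic ribosomal protein genes, whose products the factors assemble with ribosomal RNA, are described beside them. Their mean relative to control was 0.12 ± 0.04 at day 2, -0.32 ± 0.22 at day 3, -0.42 ± 0.06 at day 4, -0.38 ± 0.11 at day 8, 0.16 ± 0.05 at day 12 and 0.25 ± 0.15 at day 16. Of 71 tested, 16 rose and 4 fell at day 2. Among all tested genes 30% rose and 30.7% fell there, and both are larger shares than 16 and 4 of 71. From day 2 to day 8, 48 of the 71 fell and none rose, against 18.4% of all tested genes falling and 17.4% rising. From day 8 to day 16, 62 rose and none fell, against 15.8% of all tested genes rising and 14.4% falling. The day 2 count moved with the setting: 26 rose and 3 fell under upper quartile scaling, 18 and 5 with libraries rescaled to one sum, 12 and 9 under quantile normalization, and 26 and 5 in replicates 2 and 3 only. The later counts under quantile normalization were 34 falling to day 8 and 42 rising to day 16, and none in the opposite direction. Ribosomal protein genes have many near-identical copies, so their values are uncertain. Rpl37a, the highest, had 5922 ± 1434 FPKM in control, 8278 ± 2201 at day 2 and 16460 ± 5649 at day 16.

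**Figure D4:**
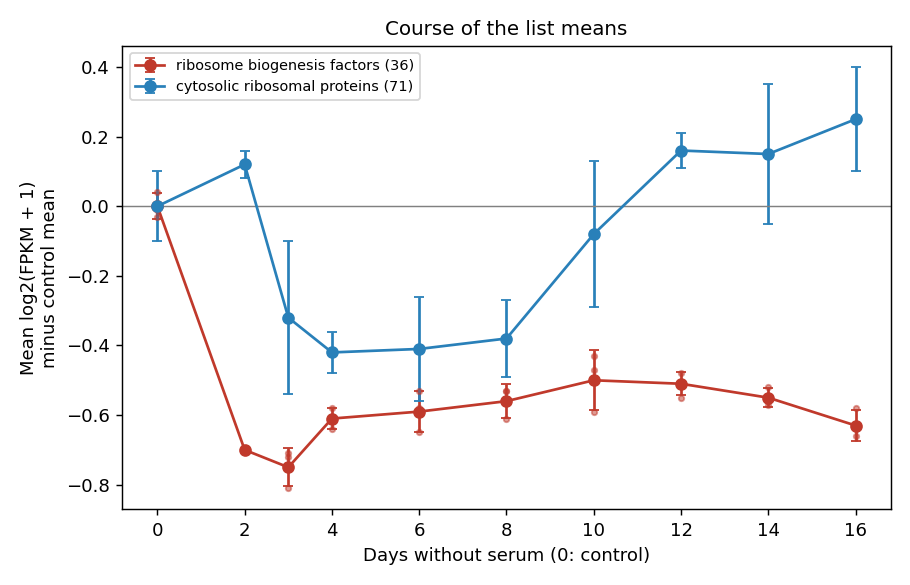
Points are the mean log2(FPKM + 1) of the 36 factors (red) and of 71 ribosomal protein genes (blue) minus their control mean, against days without serum, with SD bars over 3 libraries and small red points for single libraries. The factors fall to -0.70 at day 2 and stay between -0.75 and -0.50, while the ribosomal protein genes are at 0.12 at day 2, at -0.42 at day 4 and at 0.25 at day 16.

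Other genes of the pathway were taken from lists of names, also chosen with earlier results of these data known. At day 2, 26 of 31 other small subunit factors and 30 of 42 other large subunit factors fell and none of either rose, with medians of -0.46 and -0.44. Of all tested genes, 30.7% fell. All 12 genes of the exosome and rRNA trimming fell (median -0.58), as did 7 of 12 of the RNA polymerase I machinery (-0.47) and 6 of 11 snoRNP assembly genes (-0.26). The snoRNP assembly count was 3 lower and 1 higher under upper quartile scaling and 3 lower under quantile normalization. In replicates 2 and 3 only, the numbers lower were 25 and 28 for the small and large subunit lists, 11 for the exosome, 7 for polymerase I and 6 for snoRNP assembly. Of the most abundant of each list, Fcf1 (small subunit) went from 72.5 ± 11.7 to 57.4 ± 0.155 FPKM, Skiv2l2 (an exosome helicase) from 39.5 ± 2.86 to 30 ± 2.74 and Nhp2l1 (a snoRNP protein) from 166 ± 12.5 to 132 ± 19.5, and all 3 passed the test. Nsa2 (large subunit) and Polr1d (a subunit shared by polymerases I and III) did not pass, at 145 ± 3.65 against 129 ± 10.3 and 105 ± 15.7 against 115 ± 7.15 FPKM. At day 16, 18 and 30 of the other small and large subunit factors were lower than control and 0 and 2 were higher. Of all tested genes, 35.0% were lower and 32.4% higher. Under upper quartile scaling 18 and 23 were lower and 0 and 6 higher at day 16. Under quantile normalization 17 and 24 were lower and 0 and 6 higher.

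Of 21 genes of RNA polymerase III, which serves the smallest ribosomal RNA and transfer RNAs, 6 fell at day 2, 2 rose and 13 were not called, and 6 of 21 is a share near the 30.7% of all tested genes that fell. Maf1, a repressor of that polymerase, was one of the 2 that rose, and went from 38.3 ± 2.03 to 58.7 ± 3.59 FPKM (log2 0.60 ± 0.09, adjusted p = 5e-06). Of 8 genes of the Myc network, 3 fell and 4 rose at day 2, against 30.7% of all tested genes falling and 30% rising. Myc went from 13.4 ± 0.737 FPKM in control to 8.23 ± 1.03 at day 2, 4.90 ± 1.58 at day 8 and 3.38 ± 0.430 at day 16, with log2 changes of -0.64 ± 0.17 at day 2 (adjusted p = 0.00177) and -1.72 ± 0.17 at day 16 (adjusted p = 1.3e-09). Max, its partner, had 23.1 ± 3.83 FPKM in control and 27.3 ± 6.09 at day 2, which did not pass. Myc fell with day among starved libraries (-0.65 ± 0.15 over 14 days, adjusted p = 0.000403), where the factors had the median of 0.17 given above. That median was 0.04 with libraries rescaled to one sum. Whether Myc has a part in the changes of the factors was not tested.

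Markers of other cell types moved over the same days. Krt8, an epithelial keratin, went from 11.7 ± 1.08 FPKM in control to 21.3 ± 1.98 at day 2 and 68.0 ± 7.01 at day 16, and the other 4 epithelial markers were below 1 FPKM on average. The summed level of 6 skeletal muscle markers was 315 to 337 FPKM in control, 131 to 168 at day 2 and 39.0 to 47.1 at day 16. Its members moved in both directions: of the 3 tested, 2 fell at day 2, Des and Myod1, the latter with a log2 change of -5.74. Tnnt2, a cardiac troponin, rose from 2.22 ± 0.308 to 141 ± 21.3 FPKM and was at 16.5 ± 4.41 at day 16. Most of the day 2 sum was thus Tnnt2, and the fall of the sum understates that of the other muscle markers. The fibroblast markers summed to between 14851 and 16867 FPKM in control, between 24313 and 28437 at day 2, between 8384 and 9832 at day 8 and between 9414 and 10890 at day 16. They too moved in both directions: at day 16, 3 of the 5 tested were lower than control and 1, Pdgfrb, was higher (log2 2.57). Of all tested genes, 35.0% were lower and 32.4% higher there. The part of all these markers in the changes above was not tested.

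**Figure D5:**
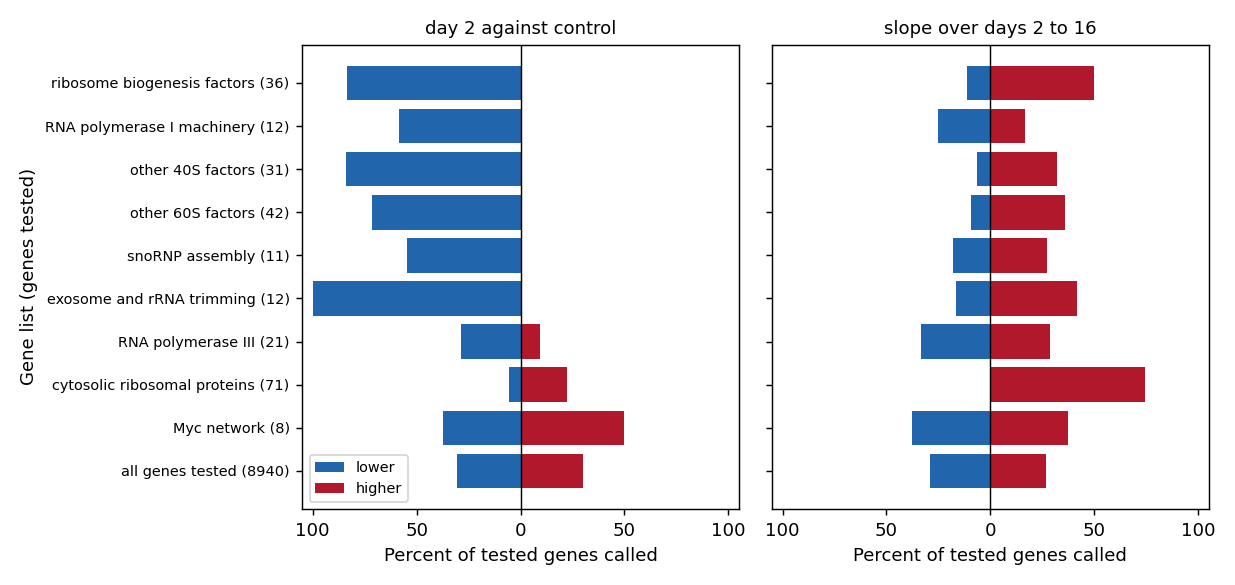
Bars give the percent of tested genes of each list called lower (blue, to the left) or higher (red, to the right) at day 2 against control and in the slope over days 2 to 16, with the number tested in brackets. The ribosome biogenesis factors have blue bars only at day 2 and mostly red bars in the slope, and the bottom row gives all 8940 genes.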

How the data were processed

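RNA sequencing libraries of REF cells were analysed from one table of FPKM. Per the submitters' processing notes, TopHat2 2.1.1, Cufflinks and Cuffnorm 2.2.1 were used with the rn6 build. The authors deposited FPKM per gene symbol, and the annotation, the scaling between libraries and the read depth are not given in the sources used here. All 30 libraries entered, with groups from their titles and labels. Values were analysed as log2(FPKM + 1) for genes with a mean of at least 1 FPKM, with limma 3.58.1 in R 4.3.3 (empirical Bayes with a mean-variance trend, two-sided, Benjamini-Hochberg over 8940 genes, threshold 0.05). A change on this scale understates that of low genes. Contrasts came from 1 fit of all 10 group means, and the slope, given as the change over 14 days, from the 27 starved libraries, where its residual also holds departures from a line. The script was tested on simulated data.

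The members and lists were chosen with earlier results of these data known. Each factor was named by role. Values of every library in the groups compared were given for the highest-expressed factor of each role and for the extremes of each comparison, and for Gnl3 and Bop1, added after their values were seen. Of each pathway list its highest-expressed gene was named. Alternatives were other pseudocounts, filters and scalings, a replicate block, replicates 2 and 3 only, single libraries or time points left out, log2 of day, and only the 2 groups compared.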

Additional observations from a re-analysis of the deposited data

How the results depend on the processing

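The direction of the called factors at day 2 and at day 16 against control was kept under each alternative run, and none of the numbers of factors called there moved by more than 1.5 times. Leaving out single libraries gave 29 to 31 calls at day 2 against control, 6 to 9 for day 8 against day 2, 4 to 6 for day 16 against day 8, 29 to 30 for day 16 against control and 20 to 23 for the slope over days 2 to 16. For day 8 against day 2 the 10 calls became 5 with only the 2 groups compared. For day 16 against day 8 the 6 calls became 12 with libraries rescaled to one sum. The cause was not tested, beyond the shift of all genes that the rescaling makes.

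For day 16 against control, 3 factors that did not pass changed sign. Pes1 (-0.09) gave 0.02 under upper quartile scaling and 0.02 under quantile normalization. Nob1 (-0.03) gave 0.08 under each of these and in replicates 2 and 3 only, 0.01 without control replicate 1, 0.03 without day 16 replicate 1, and -0.12 to 0.03 over all single libraries left out. Nat10 (-0.03) gave 0.08 under upper quartile scaling, 0.02 under quantile normalization, 0.04 without control replicate 3 and 0.02 without day 16 replicate 3, and -0.09 to 0.04 over all single libraries left out. The cause was not tested.

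Deviations from the group means correlated between same-numbered libraries, over 45 pairs each. The mean was 0.36 for number 1 (0.077 to 0.727), 0.093 for number 2 (-0.206 to 0.323) and 0.17 for number 3 (-0.111 to 0.446). The libraries numbered 1 thus shared a deviation, as on the leading axis described above. The labels name no batch, and the main fit had no term for replicate number. With the replicate block the calls were 31, 11, 7, 31 and 23, against 30, 10, 6, 30 and 22 without it, in the order above. Against control it added the calls of Bms1 at day 2 (adjusted p = 0.0292) and of Wdr75 at day 16 (0.0352). Without counts the depth behind a value is unknown, so no counting error can be given.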
